A study of Mus musculus with 60 samples.

Results

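Livers of diet-induced obese (DIO) mice were compared directly. Treated mice kept the GIP receptor gene, and vehicle-treated mice carried a knockout of it labelled Syn. The Giprfl/fl mGIPR-Ab/P1 group holds 5 livers of mice with floxed Gipr alleles given mGIPR-Ab/P1, in which a GLP-1 peptide is joined to an antibody that binds the GIP receptor. The GiprSyn-/- Vehicle group holds 5 livers of Gipr knockout mice given vehicle. The members were all 10 liver libraries that carry these labels in the table of the Gipr line, out of 60 libraries in the series. The other group of the table, 5 Giprfl/fl Vehicle livers, gives the level from which both departed. Genes were tested where at least 5 of these 15 livers reached 1 FPKM, the unit of the deposited values, in which fragments are scaled by transcript length and sequencing depth.

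The question is what separates treated from knockout livers, given that both depart from the vehicle livers. Genotype and treatment differ at once between the groups, so their parts cannot be told apart, and no sample combines the knockout with the conjugate. The labels do not spell out Syn. In mouse lines the abbreviation usually stands for a synapsin promoter, which is active in neurons, and the title of the series concerns receptors of the central nervous system. Sex, age, dose and duration are not given in the labels, and neither is whether floxed controls carry a Cre gene. Gipr itself was between 0 and 0.0149 FPKM in every one of the 15 livers, so the knockout cannot be checked in this tissue. Glp1r stayed at or below 0.356 FPKM, and Syn1 lay between 0.0654 and 0.298 FPKM.

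As background, hepatocytes handle fatty acids through several routes. Mitochondria and peroxisomes oxidize them, enzymes of the Cyp4a family hydroxylate them at the omega end, and acyl-CoA thioesterases release them from coenzyme A. The nuclear receptor PPAR-alpha, which senses fatty acids, drives many of these genes. A second program depends on how the pituitary secretes growth hormone. Widely spaced pulses, typical of male rodents, keep one set of liver genes high (major urinary proteins, Cyp4a12, Hsd3b5), and near-continuous secretion, typical of females, keeps another set high (Cyp2b9, Cyp2a4, Cyp17a1).

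Conjugate livers were sequenced to an estimated 42.4 to 57.4 M fragments (M, 1e6) and knockout livers to 35.1 to 54.8 M. All 10 hepatocyte markers were measured, and their summed level was 55500 to 62700 FPKM with the conjugate and 42800 to 49700 FPKM in the knockout, without overlap. Other tissue was present in some samples. The summed level of 16 exocrine pancreas markers exceeded 1000 FPKM in conjugate replicates 2 and 4, knockout replicate 1 and vehicle replicates 2 and 5, and was 38.5 to 450 FPKM in the remaining conjugate and knockout livers. Knockout replicate 5 had an MHC class II score (mean log2(FPKM + 1) over the list) of 6.71, against 3.19 to 3.56 in the other knockout livers and 2.90 to 4.35 with the conjugate. Conjugate replicates 4 and 5 and vehicle replicate 5 have library numbers from a higher range than the rest, which holds no knockout liver, so no comparison can be made within it.

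Of 11201 genes tested, 147 (1.31%) differed between conjugate and knockout livers, 121 of them (1.08%) higher with the conjugate and 26 (0.232%) higher in the knockout (limma on log2(FPKM + 1), Benjamini-Hochberg adjusted p under 0.05). Differences are given below as conjugate minus knockout on the log2(FPKM + 1) scale, with the standard error of the model. The 26 genes higher in the knockout had a median of -1.12, and 15 of them changed at least 2-fold. Among the 121 genes higher with the conjugate the median was 0.56, and 25 changed at least 2-fold. Groups of 5 did not overlap for 472 genes (4.21%), among them 113 of the 121 and 25 of the 26. The same fit called 486 genes between conjugate and vehicle (4.34%), of which 131 were higher (1.17%) and 355 lower (3.17%) with the conjugate. Between knockout and vehicle it called 1160 (10.4%), of which 161 were higher (1.44%) and 999 lower (8.92%) in the knockout. Those contrasts share libraries with the direct one, so their values only locate the levels. For the 121 genes the median was 0.04 for conjugate minus vehicle and -0.56 for knockout minus vehicle, and 81 of them were called lower in the knockout than in vehicle. For the 26 genes the medians were -0.01 and 1.11, and 21 were called higher in the knockout than in vehicle. No gene was called in opposite directions against vehicle.

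**Figure D1:**
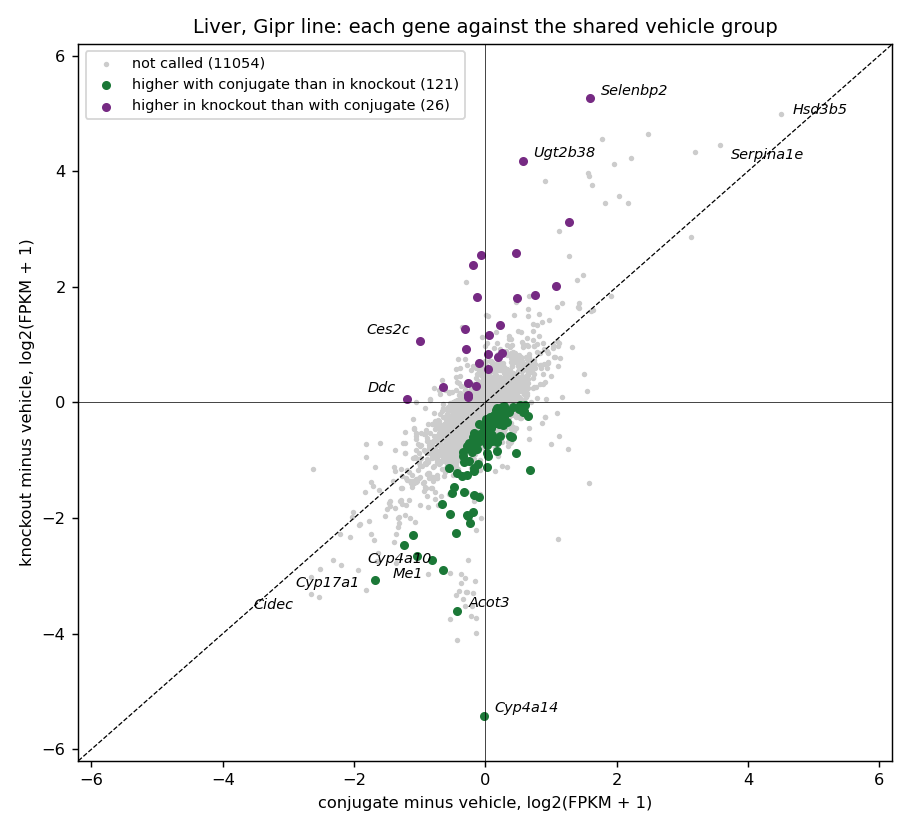
Each point is 1 of the 11201 genes, at its conjugate minus vehicle difference (x axis) and its knockout minus vehicle difference (y axis), both on the log2(FPKM + 1) scale. The axes share the vehicle livers, the dashed line marks equal differences, and the 121 and 26 genes called in the direct comparison lie below and above it, many of them near 0 on the x axis.

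The count of calls depended on the livers and on the scaling. Without the 5 livers rich in pancreas markers, an alternative chosen after the data were seen, 2 genes were called, Cyp4a14 and Ugt2b38. All 147 kept their direction in that fit of 10 livers, each with an unadjusted p under 0.05 (limma). Those livers are part of the set in which the 147 were selected, so this is not an independent check. The fit also compares fewer livers per group. None of the 16 pancreas markers was among the 147, although all 16 were higher with the conjugate (median 3.03). Their sums ran from 43.5 to 11700 FPKM with the conjugate and from 38.5 to 4250 FPKM in the knockout. Such a spread makes a call unlikely, so the lack of calls says nothing of pancreas tissue in the other genes. With single livers left out, the count ran from 59 without knockout replicate 2 to 555 without conjugate replicate 1. Scaling by the median of ratios gave 48 genes higher with the conjugate and 33 higher in the knockout, quantile normalization gave 52 and 31, and a common sum of FPKM gave 436 and 27. The share higher with the conjugate was thus 82.3% as deposited and 59.3%, 62.7% and 94.2% under the 3 scalings.

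The Cyp4a family of omega-hydroxylases divided between the groups. Of 6 members tested, 3 were higher with the conjugate and 2 were higher in the knockout, beside 1.08% and 0.232% of all genes tested. Without the higher range of library numbers 3 and 0 were called. Without the livers rich in pancreas markers 1 and 0 were called. In both smaller fits 4 members were positive and 2 negative, as with all livers. Cyp4a14, which hydroxylates medium- and long-chain fatty acids and is a standard PPAR-alpha target, showed the largest difference of all genes tested. The conjugate livers had 86.3, 208, 232, 411 and 189 FPKM of Cyp4a14 in replicates 1 to 5. The knockout livers had 2.38, 2.88, 5.43, 11.9 and 1.32 FPKM. Every conjugate liver thus exceeded every knockout liver, and the conjugate mean of 225 ± 118 FPKM (SD, n = 5) was close to the vehicle mean of 209 ± 53.5 FPKM. The direct difference was 5.40 ± 0.43 (limma, adjusted p = 1.35e-05). Without the livers rich in pancreas markers it was 4.91 (limma, adjusted p = 0.0153).

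Cyp4a10, a close relative with the same activity, had 84.4, 94.9, 104, 165 and 97.4 FPKM with the conjugate. Its knockout values were 17.5, 25.2, 31.6, 37.4 and 8.28 FPKM. The groups did not overlap, and the difference was 2.26 ± 0.33 (limma, adjusted p = 0.00308). Cyp4a31 followed the same direction at a low level, with 1.11 to 3.45 FPKM against 0.426 to 0.794 FPKM. Cyp4a12a and Cyp4a12b, the male-biased members of the family that form 20-HETE from arachidonic acid, ran the other way. Cyp4a12a measured 20.2, 26.0, 28.6, 19.3 and 14.6 FPKM with the conjugate. In the knockout it measured 57.4, 66.0, 109, 56.6 and 51.1 FPKM, above every conjugate liver, with a difference of -1.58 ± 0.26 (limma, adjusted p = 0.00689). Cyp4a12b had 1.59 to 5.75 FPKM with the conjugate and 7.55 to 23.8 FPKM in the knockout, a difference of -2.12 ± 0.36 (limma, adjusted p = 0.00849). The calls of Cyp4a12a and Cyp4a12b were each lost under 3 of 31 alternatives. Reads may be shared between such near-identical copies, so values of single members of this family, and of the Acot, Mup, Ugt, Ces2, Cyp2c and Serpina1 families, are uncertain.

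**Figure D2:**
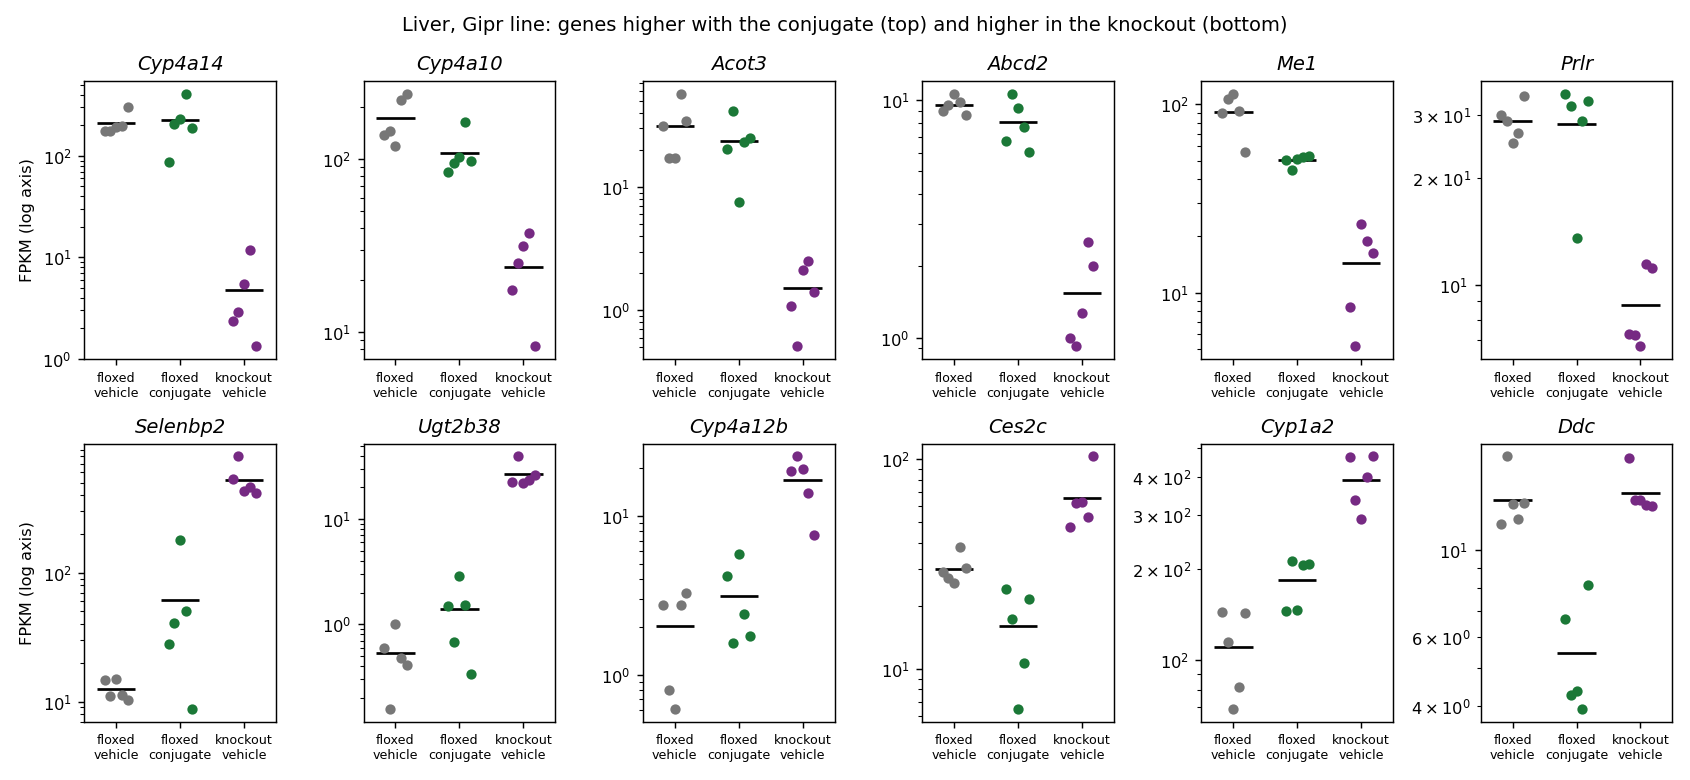
FPKM on log axes for 12 genes, with 1 point per liver and a bar at the mean of 5 livers, in floxed vehicle, floxed conjugate and knockout vehicle mice. In the upper row the knockout livers lie below the other groups (Cyp4a14 at 1.32 to 11.9 FPKM against 86.3 to 411 with the conjugate), and in the lower row they lie above the conjugate livers (Ugt2b38 at 22.1 to 39.5 FPKM against 0.334 to 2.91).

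Acyl-CoA thioesterases, which split acyl-CoA into free fatty acid and coenzyme A, were higher with the conjugate in 4 of the 10 members tested and in none higher in the knockout. Acot3, a peroxisomal member, had 20.6, 41.7, 7.56, 23.3 and 25.1 FPKM with the conjugate and 1.08, 0.509, 2.11, 2.53 and 1.40 FPKM in the knockout. The lowest conjugate liver, replicate 3, was still above the highest knockout liver, and the difference was 3.18 ± 0.40 (limma, adjusted p = 0.00106). Acot4, also peroxisomal, gave 19.3 to 31.2 FPKM against 4.87 to 10.2 FPKM (1.67 ± 0.21, limma, adjusted p = 0.00106). Acot1, the cytosolic member, gave 9.80 to 30.0 FPKM against 1.65 to 6.05 FPKM, again without overlap. It was the one of the 4 whose conjugate mean lay above the vehicle mean (16.6 ± 7.91 against 10.1 ± 4.95 FPKM, SD, n = 5), a difference not called against vehicle (limma, adjusted p = 0.277). Acot2, the mitochondrial member, missed the threshold at 0.94 (95% interval 0.46 to 1.43; limma, adjusted p = 0.0551).

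Abcd2 and Crat, among the largest called differences, were also higher with the conjugate. Abcd2, a peroxisomal carrier of very-long-chain acyl-CoA, had 6.69, 10.6, 9.25, 7.70 and 6.04 FPKM with the conjugate. The knockout livers gave 0.994, 0.918, 1.27, 2.52 and 2.0 FPKM, so that every one lay below all conjugate and vehicle livers. The difference of 1.85 ± 0.17 had an adjusted p of 6.12e-05 (limma). Crat, carnitine acetyltransferase, had 15.1 to 18.5 FPKM with the conjugate, 4.30 to 7.34 FPKM in the knockout and 19.4 to 32.6 FPKM in vehicle livers, so that it was called lower than vehicle in both groups and lower in the knockout than with the conjugate (1.38 ± 0.14, limma, adjusted p = 0.000255).

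The enzymes of mitochondrial and peroxisomal beta-oxidation and ketogenesis had few calls as deposited. Of 27 tested, 1 was called, Acadl, the long-chain acyl-CoA dehydrogenase, with 105 to 127 FPKM against 82.4 to 94.5 FPKM (0.38 ± 0.07, limma, adjusted p = 0.0106). Acat1, the mitochondrial acetoacetyl-CoA thiolase, is outside the list, was also called and is given at the end. The median of the list was 0.223, with 24 of 27 positive, beside 0.0766 over all genes tested. The scaling moved this count: 6 were called under a common sum of FPKM, with 27 of 27 positive and a median of 0.323, and 0 under median-of-ratios scaling, with a median of 0.109. Against vehicle, 4 members were called lower with the conjugate and 18 lower in the knockout. Cpt2, which completes the carnitine shuttle, is an example of a gene called lower than vehicle in both groups, and its direct difference was -0.01 (95% interval -0.16 to 0.15).

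Among 15 further PPAR-alpha targets, 1 was called, Fabp1, the liver fatty acid binding protein, and the list had a median of 0.457. The conjugate livers had 7908 to 10588 FPKM of Fabp1 and the knockout livers 5325 to 7826 FPKM (0.54 ± 0.12, limma, adjusted p = 0.0372). The ranges nearly touched, and this call was lost under 19 of 31 alternatives. The Fabp1 promoter is shown because a direct repeat of the kind bound by PPAR-alpha with its partner RXR can be read in it. RefSeq gives these 250 bases before the transcription start (GRCm38.p6, chr6:71199629-71199878, plus strand), with the match in capitals.

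Fabp1: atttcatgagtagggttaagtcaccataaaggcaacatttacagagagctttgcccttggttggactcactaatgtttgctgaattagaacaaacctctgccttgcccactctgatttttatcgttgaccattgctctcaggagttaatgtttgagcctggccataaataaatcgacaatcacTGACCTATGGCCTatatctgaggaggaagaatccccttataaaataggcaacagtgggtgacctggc

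The letters searched were AGGNCANAGGNCA on both strands, and the match lies 67 to 55 bases before the start. It was found in 111 of 32851 promoter windows of this length (0.338%). Of the genes higher with the conjugate, 84 had a window and 1 held a match. Of those higher in the knockout, 17 had a window and 0 held a match. A match is a description of letters and not a binding site.

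Fatty acid synthesis and elongation had as many calls as the thioesterases. Of 18 genes, 4 were higher with the conjugate and none was higher in the knockout, with a median of 0.477. Me1, the malic enzyme that supplies NADPH to lipogenesis, had 50.5, 45.0, 51.0, 52.7 and 53.2 FPKM with the conjugate. The knockout livers had 8.34, 5.17, 23.3, 18.8 and 16.3 FPKM. The conjugate livers lay close together between the vehicle mean of 91.6 ± 22.3 FPKM (SD, n = 5) and the knockout, and the direct difference was 1.91 ± 0.31 (limma, adjusted p = 0.00657).

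The other 3 called members build polyunsaturated fatty acids. Elovl5, an elongase of polyunsaturated chains, had 150, 85.4, 95.3, 78.0 and 151 FPKM with the conjugate and 42.3, 33.4, 58.5, 39.9 and 58.6 FPKM in the knockout. It was called below vehicle in both groups, and further below in the knockout (1.23 ± 0.23, limma, adjusted p = 0.0161). Fads1, the delta-5 desaturase, had 157 to 254 FPKM against 74.8 to 136 FPKM (0.94 ± 0.18, limma, adjusted p = 0.0166). Fads2, the delta-6 desaturase, gave 304 to 612 FPKM against 150 to 275 FPKM, and its call was lost under 24 of 31 alternatives. Scd1, the delta-9 desaturase, had a difference of 2.09 with an adjusted p of 0.057 (limma), and Fasn, fatty acid synthase, one of 0.91 with an adjusted p of 0.31 (limma).

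Cholesterol synthesis and uptake genes had a median of 0.500, with 3 of 24 called, all higher with the conjugate. Sc5d, which acts late in cholesterol synthesis, had 192 to 231 FPKM with the conjugate and 129 to 161 FPKM in the knockout, without overlap (0.56 ± 0.12, limma, adjusted p = 0.0336), and its call was lost under 14 of 31 alternatives. Hmgcs1, an early enzyme called below vehicle in both groups, did not pass (0.52, 95% interval 0.01 to 1.03; limma, adjusted p = 0.316). The list is sensitive to the livers used: its median was 0.131 without the livers rich in pancreas markers, where 15 of 24 members were positive against 23 of 24 with all livers. Without those livers the thioesterase and fatty acid synthesis lists had medians of 0.321 and 0.696, and no member of these 3 lists was called. With median-of-ratios scaling 0 cholesterol genes were called, and with quantile normalization 2 of the 18 fatty acid synthesis genes.

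**Figure D3:**
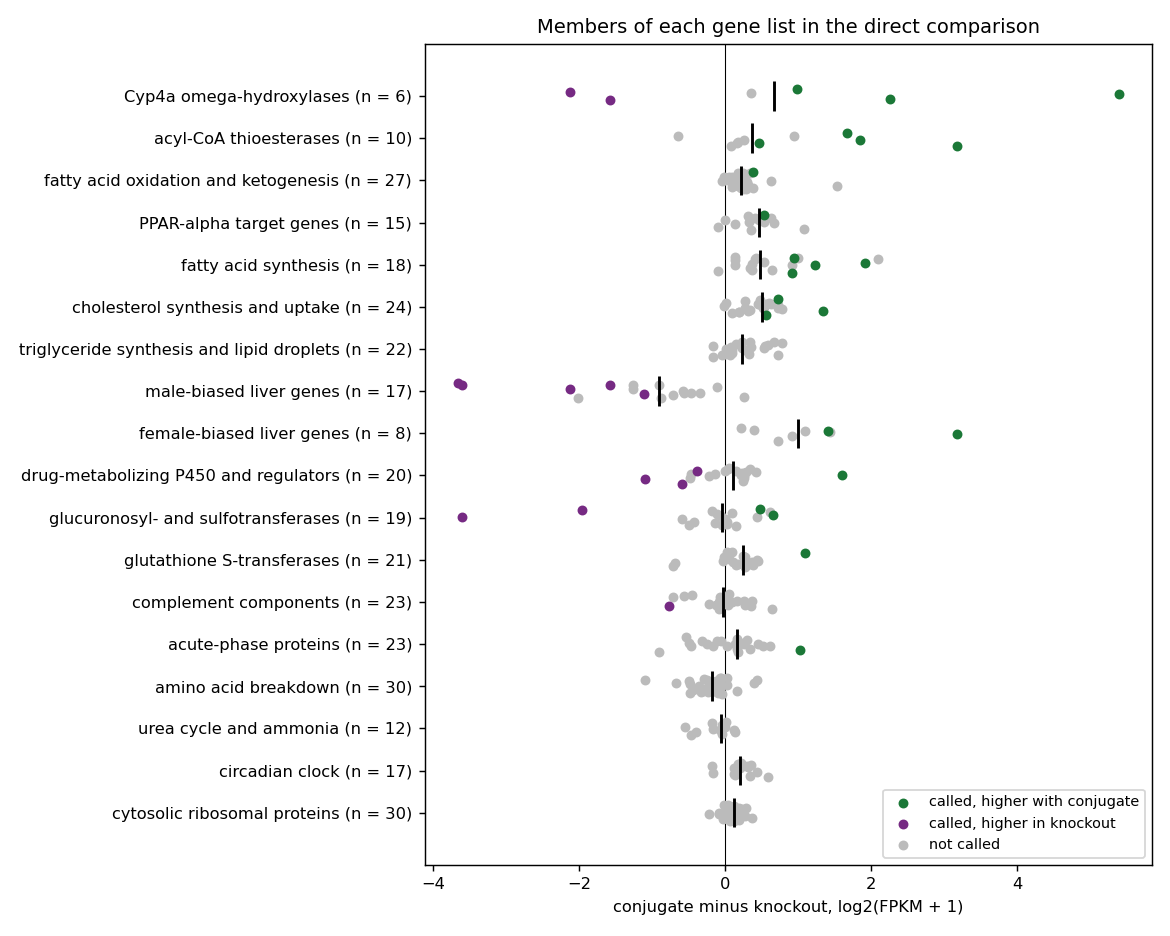
Conjugate minus knockout differences on the log2(FPKM + 1) scale for the tested members of 18 gene lists, 1 point per gene, coloured where called, with a vertical bar at each list's median. Called members of the thioesterase, fatty acid synthesis and cholesterol lists all lie above 0, those of the male-biased list all lie below 0, and those of the Cyp4a list lie on both sides.

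Genes whose level in mouse liver is higher in males were higher in the knockout wherever they were called. Of 17 tested, 5 were higher in the knockout than with the conjugate and 0 were higher with the conjugate, with 16 negative and a median of -0.906. Of these 5, Cyp4a12a and Cyp4a12b were also counted in the Cyp4a family. Against vehicle, 6 of the 17 were called higher with the conjugate and 14 were called higher in the knockout. Selenbp2, a selenium-binding protein, had 27.7, 40.8, 178, 50.4 and 8.74 FPKM with the conjugate. The knockout livers had 528, 798, 426, 458 and 418 FPKM, and the vehicle livers 10.3 to 14.9 FPKM. The knockout livers all lay above the highest conjugate liver, replicate 3, while conjugate replicate 5 lay below the vehicle range. The direct difference was -3.66 ± 0.52 (limma, adjusted p = 0.00262).

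Ugt2b38, a glucuronosyltransferase, had 1.48, 0.679, 2.91, 1.52 and 0.334 FPKM with the conjugate. Its knockout values were 22.7, 39.5, 22.1, 23.7 and 26.0 FPKM, and its vehicle values 0.156 to 1.01 FPKM. Conjugate and vehicle livers overlapped, whereas the knockout stood apart from both, with a direct difference of -3.61 ± 0.25 (limma, adjusted p = 4.14e-06). Ugt2b38 and Cyp4a14 were the 2 of 46 called genes named by rule that passed under all 31 alternatives. The related Ugt2b37 showed the same order (0.205 to 0.450 against 2.78 to 8.65 FPKM).

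Major urinary proteins, pheromone carriers made by the liver in large amounts, were represented by Mup20 and Mup8. Mup20, also called darcin, had 2350 to 5923 FPKM with the conjugate and 6539 to 11292 FPKM in the knockout, while the vehicle livers had 3114 to 4911 FPKM. The difference of -1.11 ± 0.23 passed (limma, adjusted p = 0.0293) but was lost under 14 of 31 alternatives. Mup8 was called above vehicle in both groups, at 4.60 to 15.2 FPKM with the conjugate and 19.1 to 50.0 FPKM in the knockout, against 1.12 to 4.66 FPKM in vehicle livers. The direct difference for Mup8 was -1.85 ± 0.32 (limma, adjusted p = 0.0106).

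The other 12 male-biased genes were not called, although 11 of them were negative. Hsd3b5, a steroid dehydrogenase of male liver, had 87.1, 112, 101, 133 and 17.8 FPKM with the conjugate. The knockout livers had 124, 161, 110, 124 and 45.9 FPKM, and the vehicle livers 0.0709 to 9.92 FPKM. Both groups were called above vehicle, and the direct difference of -0.47 had a 95% interval of -1.91 to 0.96, so a difference of more than 2-fold in favour of the knockout was not excluded. The serpin Serpina1e differed by -0.88 (95% interval -1.98 to 0.22) and the organic anion carrier Slco1a1 by 0.26 (95% interval -1.22 to 1.75). In conjugate livers Slco1a1 measured 142, 147, 165, 155 and 49.8 FPKM, so that replicate 5 was lowest here as for Hsd3b5 and Selenbp2.

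Of 18 female-biased genes, 8 were expressed highly enough to test, and 2 were called, both higher with the conjugate. One is Acot3, given above. The other is Cyp17a1, the 17-alpha-hydroxylase of steroid synthesis, with 4.78 to 7.97 FPKM with the conjugate, 1.32 to 2.16 FPKM in the knockout and 9.21 to 48.1 FPKM in vehicle livers. It was called below vehicle in both groups, and its direct difference of 1.40 ± 0.31 (limma, adjusted p = 0.0409) was lost under 18 of 31 alternatives. All 8 tested members were positive, with a median of 1.0. The male-biased list had 5 called members with all livers, 2 without the higher range of library numbers and 1 (Ugt2b38) without the livers rich in pancreas markers, with medians of -0.838 and -1.07 in the smaller fits. The medians of the male-biased and female-biased lists kept their signs under the 3 scalings and without the livers rich in pancreas markers.

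The growth hormone and IGF axis showed 1 call among 18 genes. Igf1, the main growth factor that growth hormone induces in liver, was 251, 244, 243, 237 and 233 FPKM with the conjugate. In the knockout it was 157, 193, 180, 205 and 185 FPKM. The groups did not overlap, although the difference was only 0.39 ± 0.09 (limma, adjusted p = 0.037), and the call was lost under 18 of 31 alternatives. Ghr, the growth hormone receptor, differed by -0.04 and the signal transducer Stat5b by -0.02, neither called. Prlr, the prolactin receptor, had 34.5, 31.8, 13.5, 28.9 and 32.8 FPKM with the conjugate and 7.30, 7.27, 6.73, 11.5 and 11.2 FPKM in the knockout. Conjugate replicate 3 came near the knockout range, the other 4 lay beside the vehicle livers (25.0 to 33.9 FPKM), and the difference was 1.55 ± 0.22 (limma, adjusted p = 0.00261).

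Lifr, the receptor for leukemia inhibitory factor, was graded across the 3 groups. Vehicle livers had 14.9 to 27.8 FPKM. With the conjugate the values were 44.4, 55.3, 44.8, 63.0 and 29.0 FPKM, and in the knockout 81.3, 111, 77.6, 88.3 and 88.0 FPKM. Both groups were called above vehicle, and the knockout was higher by a further 0.94 (difference -0.94 ± 0.19, limma, adjusted p = 0.0269). This direct call was lost under 9 of 31 alternatives.

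Enzymes that process drugs and hormones differed in both directions. Cyp1a2, which metabolizes caffeine and estrogens, had 145, 211, 146, 205 and 208 FPKM with the conjugate. The knockout livers had 467, 338, 291, 402 and 469 FPKM, all above the conjugate livers, and the vehicle livers had 69.0 to 145 FPKM. The difference was -1.10 ± 0.21 (limma, adjusted p = 0.0187). Cyp2c38 was the 1 member of 20 drug-metabolizing P450 genes and their regulators that was higher with the conjugate, at 8.04 to 17.2 FPKM against 2.09 to 4.93 FPKM, with 25.1 to 34.6 FPKM in vehicle livers. Cyp2f2 and Cyp2a12 were lower with the conjugate by smaller amounts (-0.59 ± 0.11 and -0.39 ± 0.08), and their calls were lost under 8 and 10 of 31 alternatives.

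The carboxylesterases Ces2b and Ces2c, which hydrolyse esters and acylglycerols, were higher in the knockout. Ces2c had 24.1, 17.3, 6.44, 10.7 and 21.5 FPKM with the conjugate and 47.4, 61.7, 62.6, 53.0 and 103 FPKM in the knockout. Vehicle livers lay between them at 25.8 to 38.1 FPKM, and the direct difference was -2.05 ± 0.29 (limma, adjusted p = 0.00261). Ces2b was at most 0.0809 FPKM in the conjugate livers and 2.65 to 15.6 FPKM in the knockout. Sult1e1, which sulfates and so inactivates estrogens, showed the same contrast, at most 0.263 FPKM against 1.08 to 13 FPKM (-2.57 ± 0.36, limma, adjusted p = 0.00242). At such low levels the added 1 FPKM of the log scale understates the fold change.

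Ugt1a5, a glucuronosyltransferase, was higher with the conjugate, at 13.3 to 35.6 FPKM against 3.66 to 11.7 FPKM (1.82 ± 0.30, limma, adjusted p = 0.00689). Of 21 glutathione S-transferases, 1 was called, Mgst3, a microsomal member, with 9.06 to 19.0 FPKM against 4.31 to 9.49 FPKM. The call of Mgst3 was lost under 11 of 31 alternatives. Gstm3 and Gsta1, called below vehicle in both groups, had direct differences of 0.27 (95% interval -0.60 to 1.13) and 0.37 (95% interval -0.78 to 1.52).

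Ddc was the 1 gene called below vehicle with the conjugate and higher in the knockout. Ddc encodes the decarboxylase that makes dopamine and serotonin. The conjugate livers had 6.68, 4.28, 4.37, 3.93 and 8.15 FPKM, all below the vehicle range of 11.7 to 17.3 FPKM. The knockout livers had 17.2, 13.4, 13.4, 13 and 13 FPKM and overlapped the vehicle livers. The direct difference was -1.25 ± 0.16 (limma, adjusted p = 0.00126), and knockout minus vehicle was 0.06. At the other side, 6 of the 121 genes were called above vehicle with the conjugate, namely Afm, Nrn1, Pigx, Ppp1r15b, Stbd1 and Ugcg. Ugcg, which makes glucosylceramide, had 5.71 to 10.3 FPKM with the conjugate, 3.87 to 4.95 FPKM in the knockout and 3.88 to 6.46 FPKM in vehicle livers, and Stbd1, a glycogen-binding protein, had 48.2 to 66.2 FPKM against 32.2 to 41.9 and 30.8 to 42.9 FPKM.

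Of 23 acute-phase proteins 1 was called, Apcs, with 14 members positive, 9 negative and a median of 0.157. Serpina7, the thyroxine-binding globulin, had 45.5, 31.0, 34.5, 31.7 and 33.9 FPKM with the conjugate and 9.24, 10.4, 15.8, 13.1 and 4.72 FPKM in the knockout (1.71 ± 0.28, limma, adjusted p = 0.00689). Apcs, serum amyloid P, was higher with the conjugate at 35.3 to 54.2 FPKM against 17.1 to 25.8 FPKM. Serpina6, the corticosteroid-binding globulin, had 305 to 354 FPKM against 160 to 281 FPKM. Alb itself, albumin, had 34879 to 39561 FPKM against 22452 to 29860 FPKM, a difference of 0.51 ± 0.12 whose call was lost under 22 of 31 alternatives. Alb is 1 of the 10 hepatocyte markers and makes up most of their sum, which did not overlap between the groups. The 10 markers gene by gene did not lean 1 way, with 6 positive, 4 negative and a median of 0.0656, and their mean log2(FPKM + 1) was 10.5 to 10.8 with the conjugate and 10.5 to 10.6 in the knockout. In whole liver, fewer cells of a type and less RNA per cell cannot be told apart.

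Of 23 complement components 1 was called, C9, a subunit of the membrane attack complex, and it was higher in the knockout. The conjugate livers had 232, 154, 195, 136 and 161 FPKM and the knockout livers 314, 330, 294, 274 and 273 FPKM, without overlap (-0.78 ± 0.13, limma, adjusted p = 0.0103). C8b and C6, other terminal components, were called above vehicle in both groups, and their direct differences of -0.72 (95% interval -1.08 to -0.35; limma, adjusted p = 0.0548) and -0.56 (95% interval -0.93 to -0.20; limma, adjusted p = 0.123) did not pass. C8a, with 152 to 235 FPKM in the knockout livers, differed by -0.03 (95% interval -0.41 to 0.36).

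A further set of genes moved from vehicle in both groups, and most of them were not called in the direct test. In all, 331 genes were called against vehicle in both groups in the same direction, 275 lower and 56 higher. Of these, 8 were called in the direct comparison, beside 147 of all 11201 genes tested (1.31%). The share of direct calls in this set was thus not below that of all genes. Of 22 genes of triglyceride synthesis and lipid droplets, 4 were called lower than vehicle with the conjugate and 12 in the knockout, and 0 were called directly (median 0.235, 18 positive). Gpat3, a gene of glycerolipid synthesis outside the list, was called directly and is given at the end. Cidec, a lipid droplet protein, had 3.56, 3.01, 6.66, 1.24 and 6.95 FPKM with the conjugate and 1.96, 0.928, 3.47, 2.27 and 1.95 FPKM in the knockout. These ranges overlap, both lie below the vehicle range of 13.8 to 72.5 FPKM, and the direct difference was 0.67 (95% interval -0.31 to 1.65).

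Plin2, which coats lipid droplets, had 202 to 273 FPKM with the conjugate, 163 to 221 FPKM in the knockout and 380 to 683 FPKM in vehicle livers, with a direct difference of 0.33 (95% interval -0.02 to 0.67). Cd36, a fatty acid transporter, differed by 0.66 (95% interval 0.19 to 1.14; limma, adjusted p = 0.157), and Apoa4, an apolipoprotein of triglyceride-rich particles, by 0.84 (95% interval 0.15 to 1.53; limma, adjusted p = 0.218). For Cd36 and Apoa4 the interval leaves out 0, yet the adjusted p does not pass. Genes with narrow intervals around 0 included Cpt2, given above, Ephx1, the microsomal epoxide hydrolase, at 0.00 (95% interval -0.23 to 0.24), Hjv, the BMP co-receptor hemojuvelin, at 0.04 (95% interval -0.18 to 0.26), and the serpin Serpina1a at -0.06 (95% interval -0.27 to 0.15).

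**Figure D4:**
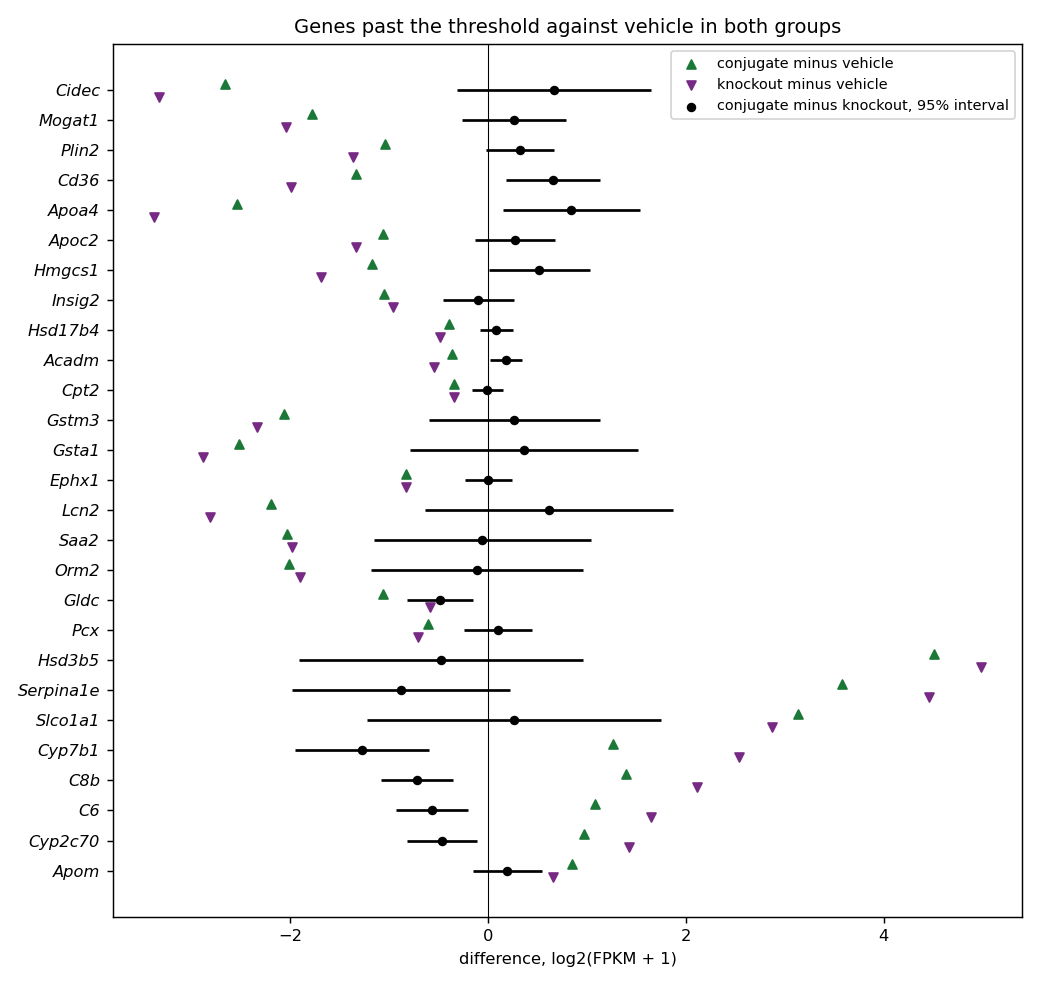
For 27 genes called against vehicle in both groups, triangles give conjugate minus vehicle and knockout minus vehicle, and dots with bars give conjugate minus knockout with its 95% interval, all on the log2(FPKM + 1) scale. The triangles of a gene lie on the same side of 0, while most direct intervals include 0 (Hsd3b5 from -1.91 to 0.96) and others do not (Cyp7b1 from -1.95 to -0.59).

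Many lists of hepatic pathway genes had no called member in the direct comparison. This holds for the listed genes only, since Acox2, an oxidase of bile acid precursors outside the lists, was called and is given at the end. These were the lists of bile acid synthesis and transport (24 tested), urea cycle (12), amino acid breakdown (30), glucose production and glycolysis (22), the circadian clock (17), heat shock chaperones (9), the endoplasmic reticulum stress response (22), nuclear-encoded oxidative phosphorylation (32) and cytosolic ribosomal proteins (30). Cyp7b1, an oxysterol hydroxylase of bile acid synthesis that is also male-biased, came closest, with 25.2 to 65.8 FPKM against 102 to 132 FPKM (-1.27, 95% interval -1.95 to -0.59; limma, adjusted p = 0.0619). Amino acid breakdown genes leaned the other way from the lipid lists, with 25 of 30 negative and a median of -0.178. None of the marker lists of macrophages, endothelium, stellate cells, cholangiocytes, B cells, neutrophils, erythrocytes, adipocytes or pancreas had a called member. The direction of some lists was nonetheless uniform. All 16 pancreas markers were positive, with a median of 3.03 and summed levels of 43.5 to 11700 FPKM with the conjugate and 38.5 to 4250 FPKM in the knockout. Without the pancreas-rich livers all 16 were still positive, with a median of 2.18. All 5 erythrocyte markers were negative, with a median of -0.342 and summed levels of 406 to 1170 FPKM against 634 to 859 FPKM. With a pancreas term in the fit 157 genes were called, and with an erythrocyte term 194. At 1.31% called, a list of 30 genes would hold less than 1 call at the background rate, so a list without calls is not set apart from other genes.

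The second mouse line gave a comparison of the same layout in other animals. There, 5 Glp1rfl/fl mGIPR-Ab/P1 livers stood against 5 livers of Glp1rWnt1-/- Vehicle mice, all DIO and with no library in common with the Gipr line. The Glp1rWnt1-/- mice carry a knockout of the GLP-1 receptor gene labelled Wnt1. The labels do not spell out Wnt1 or say which cells lost the gene. That comparison called 547 of 10858 genes (5.04%). Unlike in the Gipr line, no gene list had a member called between knockout and vehicle there. For the male-biased list this was 0 of 16, with a median knockout minus vehicle difference of 0.972. The Gipr line had 14 of 17 and a median of 1.73. It is thus not a second case of 2 groups that were both called away from vehicle in these lists. Estimated depth differed there between the groups without overlap, 34.0 ± 1.58 M with the conjugate against 48.4 ± 3.49 M in the knockout (SD, n = 5), so depth and group cannot be told apart. The tables were normalized separately, and no difference between the lines was tested. Over the 10640 genes tested in both, the differences had a Pearson r of 0.336, a description across genes that share libraries within each line. Of 142 genes called in the Gipr line and tested in both, 112 (78.9%) had the same sign, against 65.7% of all genes tested in both. Several lipid lists leaned the other way in the Glp1r line. Medians there were -0.242 for fatty acid synthesis (3 positive, 14 negative) and -0.212 for cholesterol (2 and 22). They were -0.121 for triglyceride synthesis (3 and 19) and -0.179 for PPAR-alpha targets (5 and 10). The thioesterase (0.0951), male-biased (-0.306) and female-biased (0.841) medians kept their signs.

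Cyp4a14 in the Glp1r line was 271 ± 60.7 FPKM with the conjugate and 138 ± 55.0 FPKM in the knockout (SD, n = 5), a difference of 1.05 ± 0.26 (limma, adjusted p = 0.0335) beside 5.40 ± 0.43 in the Gipr line. Acot1 was called in both lines as well (0.74 ± 0.19 and 1.85 ± 0.33). Cyp4a12b differed by -1.89 ± 0.37 (limma, adjusted p = 0.0169) beside -2.12 ± 0.36, with 2.74 ± 1.96 FPKM against 12.3 ± 5.54 FPKM (SD, n = 5). Ces2c was also called in both, at -0.97 ± 0.25 and -2.05 ± 0.29. Cyp4a10 and Me1, by contrast, had differences of 0.16 and -0.15 in the Glp1r line that did not pass, and Cyp1a2 had the opposite sign there, at 0.57 ± 0.16 (limma, adjusted p = 0.0512).

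**Figure D5:**
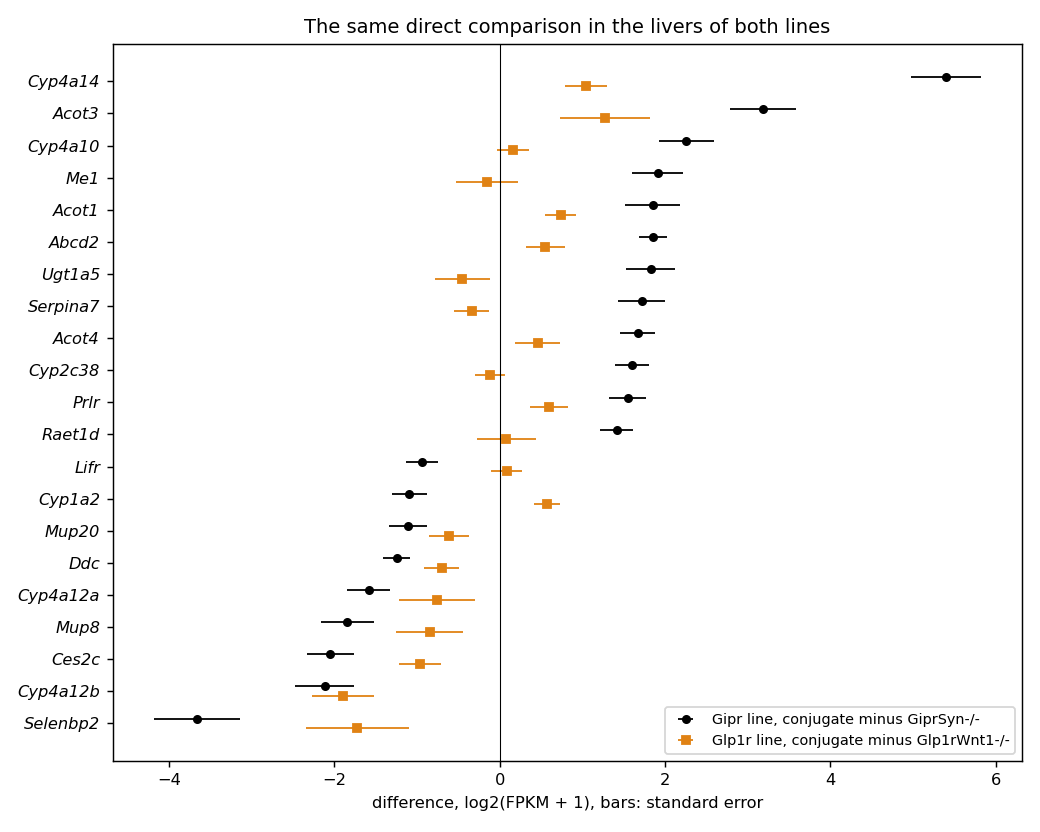
Conjugate minus knockout differences on the log2(FPKM + 1) scale, with bars of 1 standard error, for the 21 of 24 genes with the largest differences in the Gipr line that were tested in both lines. Selenbp2, Cyp4a12b, Ces2c, Cyp4a14 and Acot3 lie on the same side of 0 in both, although Selenbp2 and Acot3 were not called in the Glp1r line. Cyp1a2 (-1.10 and 0.57), Me1, Ugt1a5, Serpina7, Cyp2c38 and Lifr lie on opposite sides, and none of these was called in the Glp1r line.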

How the data were processed

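Per the labels, poly(A) RNA of liver was sequenced as stranded libraries on a NovaSeq X instrument. The authors deposited FPKM values made with RSEM, per the submitters' processing notes. The version of RSEM, like the aligner, build and annotation, is not given in the sources used here. Read sharing between near-identical genes could therefore not be examined. The table lists 54343 symbols, of which 91.1% matched a mouse gene name table.

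From the deposited FPKM, log2(FPKM + 1) was fitted in R 4.3.3 with limma 3.58.1, with 3 groups of 5 livers, a mean-variance trend and Benjamini-Hochberg adjustment over all genes with at least 1 FPKM in 5 of 15 livers. Tests are two-sided. Nothing in the labels says more of the replicates than that they are biological. Depth was estimated in Python 3.11.15 (pandas 2.3.3, numpy 2.4.6) from the smallest FPKM steps of single-transcript genes, and is approximate. No counts are given, so no counting interval was derived. On simulated data (11103 genes, 200 of them changed), 57% of genes changed 1.5-fold and 90% of those changed 2-fold were recovered. Unchanged genes made up 3.39% and 6.74% of the calls. The simulation drew independent normal values per gene, changed no genes of low level and held no livers with other tissue. It therefore does not give the share recovered in these livers.

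The members and gene lists were chosen with earlier results of these data known. Named genes are the 12 largest called differences per direction with a higher group mean of at least 5 FPKM (unnamed gene models left out), up to 4 called members per list, up to 3 members per list called against vehicle in both groups, and Gipr, Glp1r and Syn1. Genes named outside this rule were chosen after their values were seen. The adipose tables were not used here, and some single genes are not reported here. Alternatives were a pseudocount of 0.1, no filter and a 5 FPKM filter, 3 scalings, a replicate block, only the groups compared, robust variance, array weights, a 1.5-fold minimum, a pancreas score term, the library number series, and each liver left out. A fit without livers over 1000 FPKM of pancreas markers, a depth term and an erythrocyte term were chosen after seeing the data.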

Additional observations from a re-analysis of the deposited data

Results flagged for a closer look

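Among 54 groups of 5 livers examined for a single far value, 11 held one whose gap to the next, divided by the range, exceeded 0.71. For normally distributed values, chance flags about 1 in 20 such groups. Most groups here hold FPKM without a log scale, of genes chosen for large differences, so that rate may not hold. In the conjugate group, Selenbp2 was 178 FPKM in replicate 3 against 8.74 to 50.4 FPKM in the others. Prlr was 13.5 FPKM in the same replicate against 28.9 to 34.5 FPKM. Cyp4a10 was 165 FPKM in replicate 4 against 84.4 to 104 FPKM, and Serpina7 was 45.5 FPKM in replicate 1 against 31.0 to 34.5 FPKM.

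In the knockout group, replicate 2 was highest for Selenbp2 (798 FPKM, others 418 to 528) and for Ugt2b38 (39.5 FPKM, others 22.1 to 26.0). Replicate 3 was highest for Cyp4a12a (109 FPKM, others 51.1 to 66.0). Replicate 5 was highest for Ces2c (103 FPKM, others 47.4 to 62.6) and for the MHC class II score (6.71, others 3.19 to 3.56). Replicate 1 was highest for Ddc (17.2 FPKM, others 13 to 13.4) and for the pancreas score (7.65, others 0.407 to 0.459).

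Cyp1a2 was lower with the conjugate than in the knockout in every liver of the Gipr line and higher with the conjugate in every liver of the Glp1r line, where it was 151 ± 25.8 against 100.3 ± 10.9 FPKM (SD, n = 5; difference 0.57). The difference between the lines was not tested.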

How the results depend on the processing

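The 147 calls (121 higher with the conjugate, 26 higher in the knockout) became 93 (69 higher with the conjugate) with no filter on low values, 81 (48) with median-of-ratios scaling, 83 (52) with quantile normalization, 463 (436) with a common sum of FPKM, 74 (57 and 17) with only the groups compared, 1011 (881 and 130) with array weights, 9 (4 and 5) with a 1.5-fold minimum, 91 (72) without the higher library number series, 92 (70) with a depth term, 2 (1 and 1) without the livers rich in pancreas markers, and with an erythrocyte term 41 were higher in the knockout. Leaving out 1 liver gave 59 to 555 calls, 42 to 490 higher with the conjugate and 17 to 65 higher in the knockout. The count moved by over 1.5 times without conjugate replicate 1 (555), 2 (92) or 4 (81), or knockout replicate 1 (87), 2 (59), 3 (93) or 4 (74), and without conjugate replicate 3 for genes higher with the conjugate (75) or 5 for genes higher in the knockout (42). The replicate block gave 160 calls (115 of the 147 among them). Same-numbered conjugate and knockout livers correlated at -0.484 to 0.126, and same-numbered conjugate and vehicle livers at -0.373 to 0.454. Of 15 livers, 1 correlated best with its own number. The main fit used no pairing, and these few correlations cannot settle whether the numbers pair livers. In the Glp1r line the 547 calls became 218 with no filter, 290 with median-of-ratios scaling, 705 with the replicate block and 135 to 798 with 1 liver left out. Where not stated, the cause was not tested.

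All 147 genes kept their direction under every alternative that tested them. The alternatives reuse the livers in which the 147 were selected, so this is not an independent check. Of the 46 called genes named by rule, none changed direction and 2 kept their call under all 31 alternatives. Of the 121 genes higher with the conjugate, 65 changed under 1.5-fold. What depth limits was not tested.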

Other observations

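Beyond the lists, the genes called in the direct comparison include further genes that were chosen after their values were seen and stand for no group. Slc17a8, a vesicular glutamate transporter, had 4.02 to 10.1 FPKM with the conjugate and 2.24 to 3.60 FPKM in the knockout. Slc16a5, a monocarboxylate transporter family member, had 2.27 to 6.31 FPKM against 0.744 to 2.81 FPKM, below the vehicle range of 8.25 to 15.3 FPKM in both groups. Vldlr, the receptor for very-low-density lipoprotein, had 1.30 to 1.86 FPKM against 0.280 to 0.716 FPKM. Gpat3, which starts glycerolipid synthesis, had 2.11 to 5.47 FPKM against 0.634 to 1.97 FPKM.

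Other called genes that were higher with the conjugate differed by small amounts. Acat1, the mitochondrial acetoacetyl-CoA thiolase, had 143 to 158 FPKM against 97.3 to 132 FPKM. Dlat, a subunit of pyruvate dehydrogenase, had 10.2 to 14.4 FPKM against 7.46 to 8.87 FPKM, and Pdk1, a kinase that inhibits that complex, had 16.5 to 21.9 FPKM against 10.9 to 15.6 FPKM. Idh1, the cytosolic isocitrate dehydrogenase, had 189 to 244 FPKM against 135 to 167 FPKM. Dbi, the acyl-CoA binding protein, had 896 to 1231 FPKM against 646 to 780 FPKM.

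Raet1d and Raet1e encode ligands of the receptor NKG2D. Raet1d had 7.86 to 15.6 FPKM with the conjugate and 2.98 to 5.73 FPKM in the knockout, and Raet1e had 1.80 to 2.94 FPKM against 0.380 to 1.17 FPKM. In the other direction, Aox3, an aldehyde oxidase, had 139 to 187 FPKM with the conjugate and 208 to 275 FPKM in the knockout, and Acox2, a peroxisomal oxidase of bile acid precursors, had 47.1 to 61.1 FPKM against 63.6 to 73.3 FPKM.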
